A study of Mus musculus with 8 samples.

Results

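Arf6, Rac1, Ppp2ca, Lamp1 and Snx20 are 5 of the 29955 genes listed in RNA-seq libraries of mouse bone marrow progenitor cells. These 5 genes were chosen by their measured values: each was lower in Ripk3-/- than in WT LK cells and not lower in Ripk3-/- LSK cells, and WT LK replicate 1 lay well above WT LK replicate 2. The difference between genotypes in either population, its contrast between the populations and the gap between the WT LK replicates are therefore given for these genes as a description, with no test.

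The study asked what Ripk3, a kinase that drives necroptosis and inflammatory signaling, does in LSK and LK cells. LSK cells (Lin- Sca1+ Kit+) hold the hematopoietic stem and multipotent cells, and LK cells (Lin- Sca1- Kit+) hold the myeloid and erythroid progenitors. RNA was extracted right after sorting from bone marrow of WT mice and of mice with a Ripk3 knockout, both labeled with the strain background CD57BL6/J, and each genotype gave 2 libraries of LSK and 2 of LK cells, 4 groups in all. The labels say that the mice were untreated, whereas the study's text places the collection after repeated X-irradiation of the mice. The sources used here give no age or sex for these libraries and do not say whether animals were pooled, or whether LSK and LK cells came from the same mice.

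The deposited values are called signal here. They are reads per gene as CPM, taken against a library size adjusted within each population and not divided by gene length, so that signal compares libraries for 1 gene and not genes with each other. The libraries held 9782166 to 16280811 reads, and 1 read was worth 0.0621 to 0.104 signal. Nothing in the labels says that replicates are separate animals, and p-values then measure only the spread between these libraries, which may be technical. With 2 libraries in each group, the smallest two-sided p of an exact permutation test is 0.333, and the tests were therefore made with limma, which shares the spread among all genes.

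Ripk3 itself was at 162 and 168 in WT LSK, 3.38 and 1.08 in Ripk3-/- LSK, 144 and 149.7 in WT LK, and 16.2 and 10.6 in Ripk3-/- LK libraries, which fits the genotype labels. Ly6a, which encodes Sca1, ranged from 141 to 237 in the LSK libraries and from 0.124 to 4.12 in the LK libraries, and Kit was at 223 or more in every library. Xist was at 402 and 413 in WT LSK and 108 and 196 in WT LK libraries, and at 1.27 or less in the Ripk3-/- libraries. The Y-linked gene Eif2s3y was at 0 in the WT libraries and between 47.0 and 98.8 in the Ripk3-/- libraries, and Uty was at 0 and between 16.8 and 31.6. Kdm5d was at 0 in the WT libraries, 3.78 and 4.89 in Ripk3-/- LSK and 1.27 and 0.124 in Ripk3-/- LK libraries, whereas Ddx3y was at 0 in all 8 libraries. Genotype and sex therefore cannot be told apart in any comparison of genotypes.

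The 5 genes serve membrane traffic, the actin skeleton and dephosphorylation. ARF and RAC proteins are small GTPases that act when bound to GTP, are switched on by exchange factors and are switched off by GTPase-activating proteins. Arf6 works at the plasma membrane and at recycling endosomes, and Rac1 drives actin-rich protrusions and takes part in the homing and retention of hematopoietic progenitors in the marrow. Cargo taken up by endosomes is either recycled, partly with the help of sorting nexins, or passed on to lysosomes, whose membrane is rich in Lamp1.

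Arf6, on chromosome 12, encodes the ARF protein of the cell surface. In LK cells its signal was 323 and 94.9 in the WT libraries and 24.9 and 48.8 in the Ripk3-/- libraries. The groups did not overlap, but the lower WT library was only 1.94 times the higher Ripk3-/- library, whereas the WT replicates were 3.41-fold apart. In LSK cells Arf6 was at 126 and 78.8 in WT against 159 and 158 in Ripk3-/- libraries, so that both Ripk3-/- libraries lay above both WT libraries. The log2 fold change, on the scale of log2(signal + 1) used throughout, was -2.30 (SE 0.39) in LK and 0.66 (SE 0.39) in LSK cells. Each SE here and below is from limma, which shares the spread over all groups and among genes. From the spread of the LK libraries alone, the SE in LK was larger. It was 1.0 for Arf6, 0.99 for Rac1, 0.65 for Ppp2ca, 0.64 for Lamp1 and 1.04 for Snx20.

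Rac1, on chromosome 5, had the widest gap between WT LK replicates among the 4 genes of high signal. Its signal was 496 and 126 in WT LK against 75.1 and 67.7 in Ripk3-/- LK libraries. The 2 Ripk3-/- libraries were within 1.11-fold of each other, the WT libraries were 3.95-fold apart, and WT replicate 2 was 1.67 times the higher Ripk3-/- library. In LSK cells Rac1 was at 158 and 125 in WT against 227 and 279.6 in Ripk3-/- libraries, again with no overlap and with the Ripk3-/- libraries on top. Its log2 fold change was -1.80 (SE 0.36) in LK and 0.84 (SE 0.37) in LSK cells.

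Ppp2ca, on chromosome 11, encodes the alpha form of the catalytic subunit of protein phosphatase PP2A, which joins a scaffold and a regulatory subunit that directs it to its substrates. Its signal was 560.5 and 236 in WT LK against 81.6 and 106 in Ripk3-/- LK libraries. Both Ripk3-/- libraries were below WT replicate 2, which was 2.21 times the higher of them. In LSK cells it was at 241 and 132 in WT against 275 and 266 in Ripk3-/- libraries, a narrow separation in which the lower Ripk3-/- library was 1.11 times the higher WT library. The log2 fold change was -1.95 (SE 0.30) in LK and 0.60 (SE 0.30) in LSK cells.

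Lamp1, on chromosome 8, encodes a heavily glycosylated protein of the lysosomal membrane. Its signal was 559 and 268 in WT LK against 77.7 and 127 in Ripk3-/- LK libraries. Its WT LK replicates were the closest of the 5 genes at 2.09-fold, and WT replicate 2 was 2.11 times the higher Ripk3-/- library. In LSK cells it was at 151 and 86.9 in WT against 259 and 232 in Ripk3-/- libraries, and the lower Ripk3-/- library was 1.53 times the higher WT library. For Lamp1 the log2 fold change was -1.95 (SE 0.29) in LK and 1.09 (SE 0.30) in LSK cells.

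The promoter sequences of 2 of the 5 genes, Ppp2ca and Lamp1, were held by the RefSeq table for GRCm38.p6 and are shown as those of genes that were chosen for a common pattern, which is no evidence of common control. The 250 bases before the start of each gene follow, on the plus strand, at chr11:52098574-52098823 for Ppp2ca and chr8:13158911-13159160 for Lamp1, with a cAMP response element (TGACGTCA) of Ppp2ca and the E-boxes (CACGTG) of Lamp1 in capitals.
Ppp2ca: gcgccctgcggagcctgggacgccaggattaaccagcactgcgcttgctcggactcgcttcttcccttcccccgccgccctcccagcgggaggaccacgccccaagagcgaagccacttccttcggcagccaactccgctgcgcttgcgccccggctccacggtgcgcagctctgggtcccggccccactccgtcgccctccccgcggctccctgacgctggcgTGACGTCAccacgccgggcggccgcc
Lamp1: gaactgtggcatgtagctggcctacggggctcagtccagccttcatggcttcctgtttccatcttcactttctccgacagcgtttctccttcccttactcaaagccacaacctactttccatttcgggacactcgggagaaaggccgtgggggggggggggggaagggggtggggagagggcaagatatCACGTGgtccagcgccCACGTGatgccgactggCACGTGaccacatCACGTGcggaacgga
The window of Lamp1 holds 4 E-boxes, which begin 61, 45, 28 and 15 bases before the start. Of 32851 such windows, 6.02% hold an E-box and 7 windows hold 4 or more, and 12 of the 44 genes of the lysosome list with a promoter hold at least 1. The cAMP response element of Ppp2ca begins 26 bases before the start, and 1.55% of windows hold one. Ppp2ca also has 2 GC boxes (GGGCGG), which 32.7% of windows hold. The AP-1 site TGACTCA, the ETS site CCGGAAG, the GAGGAAGT core, the CCAAT box and the TATA box TATAAA, searched on both strands, were found in neither window. These matches are a description of letters, and binding was not measured.

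Snx20, also on chromosome 8, encodes a sorting nexin of blood cells that binds the P-selectin ligand Selplg and brings it to endosomes. It was the gene of lowest signal, with 537 and 104 reads in WT LK and 22 and 31 reads in Ripk3-/- LK libraries. The exact Poisson 95% interval of the signal, which covers counting error only (reads are not known to be separate molecules), was 33.5 to 39.7 around the 36.5 of WT LK replicate 1 and 6.49 to 9.62 around the 7.94 of WT LK replicate 2. The intervals of the Ripk3-/- LK libraries, 0.874 to 2.11 around 1.40 and 1.31 to 2.73 around 1.92, overlapped each other and lay below both. The WT LSK libraries held 53 and 45 reads of Snx20, a signal of 5.26 and 4.66, and the Ripk3-/- LSK libraries held 248 and 142, a signal of 19.9 and 13.9, so that the groups were apart and the lower Ripk3-/- library was 2.64 times the higher WT library. For Snx20 the log2 fold change was -2.79 (SE 0.61) in LK and 1.57 (SE 0.61) in LSK cells.

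**Figure D1:**
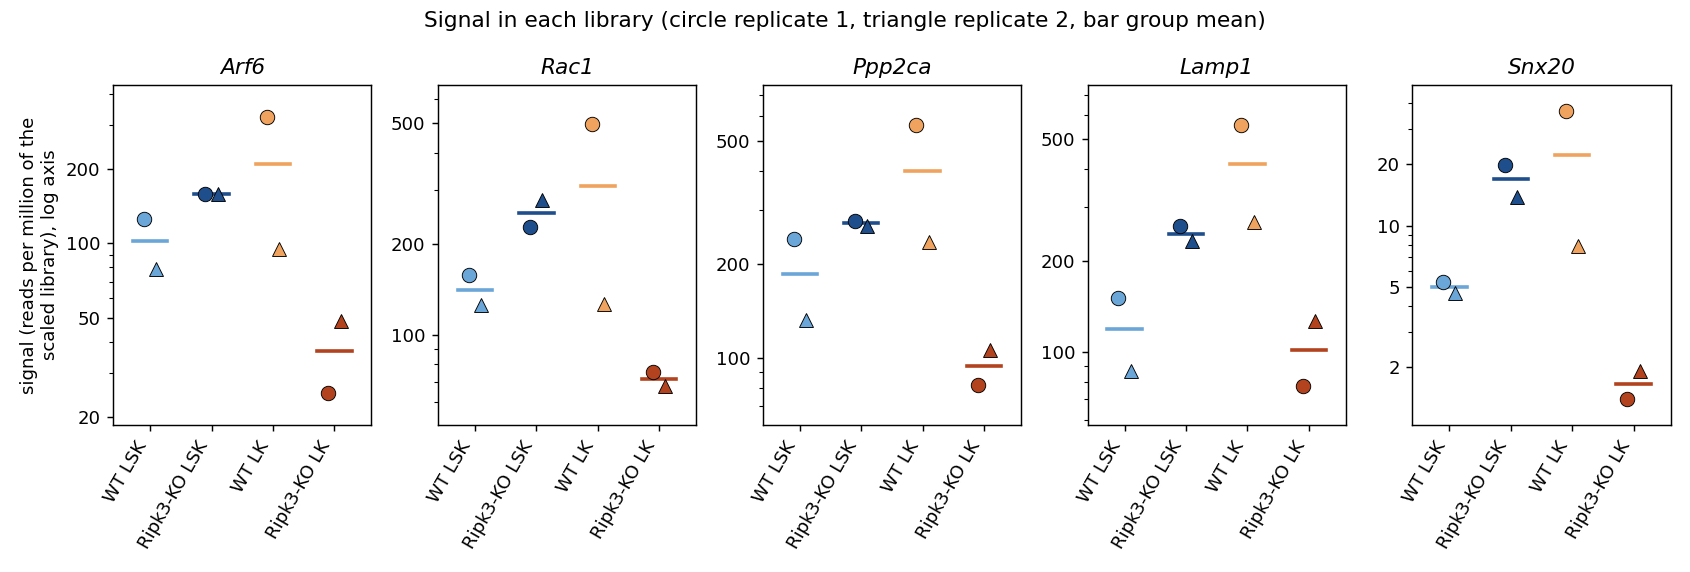
Signal of Arf6, Rac1, Ppp2ca, Lamp1 and Snx20 in each of the 8 libraries on a log axis, with a point per library (circle, replicate 1; triangle, replicate 2) and a bar at each group mean. WT LK replicate 1 is the highest library of every panel, at 323 for Arf6 and 36.5 for Snx20, and both Ripk3-/- LK libraries are below both WT LK libraries.

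For all 5 genes both Ripk3-/- LK libraries lay below both WT LK libraries, an arrangement that 2782 of the 13949 genes tested in LK (19.9%) shared and that the choice of the genes used. All 5 also had both Ripk3-/- LSK libraries above both WT LSK libraries, as did 3594 of the 16817 genes tested in LSK (21.4%). The rule asked that the genes were not lower in Ripk3-/- LSK cells, and the values were higher there, with ratios of group means from 1.45 for Ppp2ca to 3.41 for Snx20. Among the genes tested in LK, 379 (2.72%) had a log2 fold change of -1 or lower. From the lowest value upward, Snx20 ranked 3, Arf6 10, Ppp2ca 20, Lamp1 21 and Rac1 32. The log2 fold change in LSK minus that in LK was 2.55 for Ppp2ca, 2.64 for Rac1, 2.96 for Arf6, 3.04 for Lamp1 and 4.36 for Snx20, a contrast for which limma called 55 of 15925 genes (0.345%) and which was not tested for the 5 genes. In bulk RNA, fewer cells of a type that expresses a gene and less RNA per cell cannot be told apart.

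The size of these differences depended on which WT LK library was kept. WT LK replicate 1 exceeded replicate 2 by 3.41-fold for Arf6, 3.95-fold for Rac1, 2.38-fold for Ppp2ca, 2.09-fold for Lamp1 and 4.60-fold for Snx20, whereas the Ripk3-/- LK replicates differed by 1.11-fold to 1.96-fold. Of the genes tested in LK, 635 (4.55%) had replicate 1 over 2-fold above replicate 2 on the log2(signal + 1) scale. In 1070 genes it was over 2-fold below, so that gaps over 2-fold occurred in both directions. A larger gap in favor of replicate 1 than that of Arf6 was found in 0.86% of the genes tested. For Rac1, Ppp2ca, Lamp1 and Snx20 this share was 0.51%, 2.65%, 3.93% and 0.4%, in genes that were chosen for the gap. Without WT LK replicate 1 the log2 fold change in LK was -1.42 for Arf6, -0.81 for Rac1, -1.33 for Ppp2ca, -1.42 for Lamp1 and -1.76 for Snx20. Without WT LK replicate 2 it was -3.18, -2.78, -2.57, -2.48 and -3.82 in the same order. The sign was the same with either library left out. In rank, counted from the lowest of 14164 genes without WT LK replicate 1, Snx20 stood at 57, Lamp1 at 193, Arf6 at 195, Ppp2ca at 253 and Rac1 at 935. In each of these fits the lone WT LK library is assumed to vary like the other groups.

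**Figure D2:**
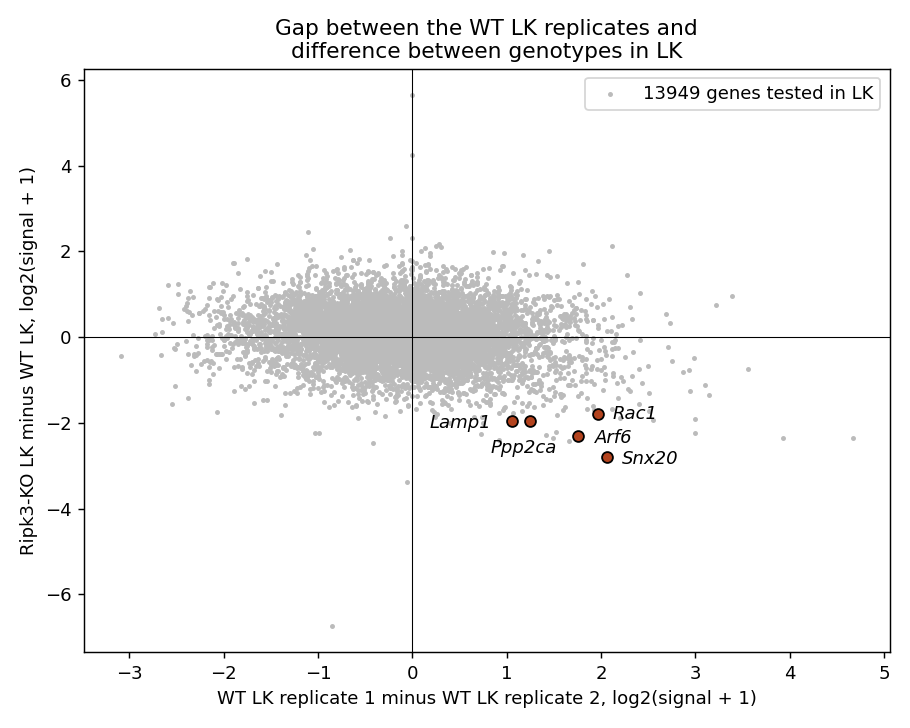
Each point is 1 of the 13949 genes tested in LK, with the log2(signal + 1) of WT LK replicate 1 minus that of WT LK replicate 2 on the x axis and the mean of Ripk3-/- LK minus the mean of WT LK on the y axis, which share the WT LK libraries. Rac1 and Snx20 have gaps of 1.97 and 2.07 and log2 fold changes of -1.80 and -2.79.

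**Figure D3:**
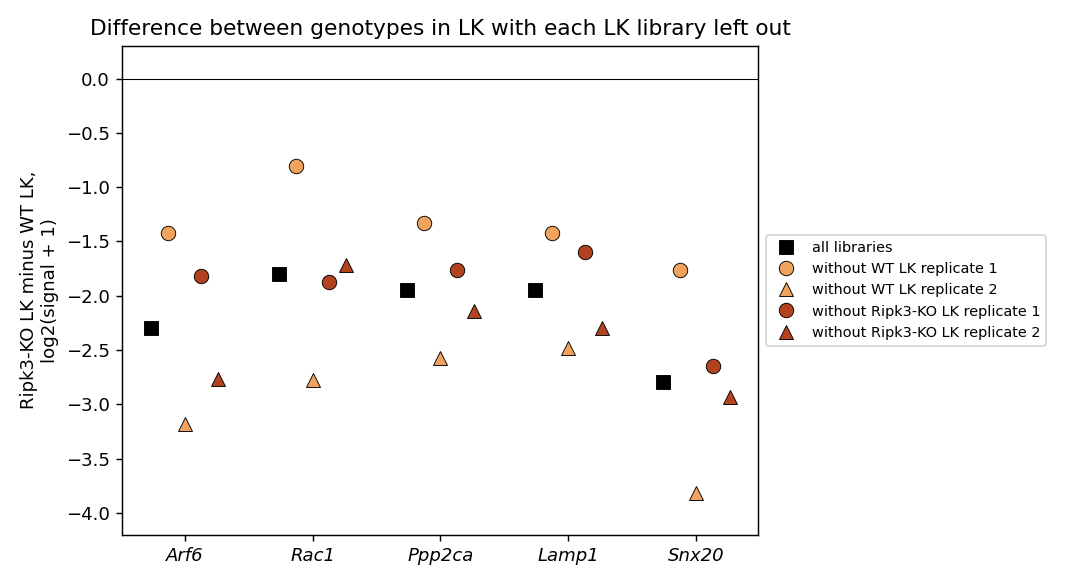
Log2 fold change of Ripk3-/- against WT LK cells for the 5 genes, in the fit of all libraries (square) and with 1 LK library left out (orange, a WT library; red, a Ripk3-/- library). All points are below 0, and Rac1 without WT LK replicate 1 is the closest to 0 at -0.81.

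In LSK cells WT replicate 2 was the lowest library for all 5 genes, and the difference between genotypes was smaller without it. Without WT LSK replicate 2 the log2 fold change in LSK was 0.33 for Arf6, 0.67 for Rac1, 0.17 for Ppp2ca, 0.69 for Lamp1 and 1.49 for Snx20. Without WT LSK replicate 1 it was 0.99, 1.01, 1.03, 1.48 and 1.64. Snx20 thus depended least on either WT LSK library and Ppp2ca most.

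The average of both LSK groups against both LK groups is a contrast other than those that chose the genes and is balanced over the genotypes. It is nevertheless built from the same libraries, and the gap between the WT LK replicates enters its LK mean and its error, so its p-values for the 5 genes are not free of the choice. For it, all 8 libraries were put on a common TMM scale of CPM, which moves LSK against LK by -0.37 on the log2 scale relative to the deposited signal. On that scale the group means of Arf6 were 238 in WT LK, 139 in Ripk3-/- LSK, 89.9 in WT LSK and 42.1 in Ripk3-/- LK cells. Rac1, Ppp2ca and Snx20 had the same order of groups, from 354 to 81.5, from 452 to 107 and from 25.3 to 1.90 CPM. Lamp1 differed, with 469.9 in WT LK, 216 in Ripk3-/- LSK, 117 in Ripk3-/- LK and 105 in WT LSK cells. For Arf6, Rac1 and Snx20 the WT LK and Ripk3-/- LSK groups overlapped, with WT LK replicate 2 below both Ripk3-/- LSK libraries, at 107 against 141 and 138 CPM for Arf6. For Ppp2ca and Lamp1 these groups were apart, but Ripk3-/- LK overlapped WT LSK, at 92.7 and 122 against 211 and 116 CPM for Ppp2ca.

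Over all genes, 5401 of 15777 (34.2%) passed an adjusted p of 0.05 for LSK against LK with limma. Of the 5 genes Lamp1 alone did, with a log2 difference of -0.60 (SE 0.21, adjusted p = 0.033 from limma), and nothing is read from this, since the libraries that chose the genes form the contrast. The adjusted p of Lamp1 from limma, edgeR or DESeq2 ranged from 0.00308 to 0.664 over 17 alternatives and was over 0.05 in 10 of them, among them without WT LK replicate 1 (-0.33, 0.267), WT LSK replicate 2 (-0.40, 0.2), Ripk3-/- LK replicate 2 (-0.42, 0.204) and Ripk3-/- LSK replicate 2 (-0.55, 0.0935). In its Ripk3-/- cells the order was the other way, with 216 CPM in LSK and 117 CPM in LK. The log2 difference was 0.30 (SE 0.28) for Arf6, 0.12 (SE 0.26) for Rac1, -0.12 (SE 0.21) for Ppp2ca and 0.25 (SE 0.43) for Snx20, and it turned to 0.34 for Ppp2ca and -0.19 for Snx20 after quantile normalization and to 0.25 for Ppp2ca on the deposited scale. Without WT LK replicate 1, for whose high values the genes were chosen, it was 0.75 for Arf6 and 0.62 for Rac1, and without WT LK replicate 2 it was -0.14 and -0.38.

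The group means of the populations stood in opposite orders in the genotypes. In WT cells the LK mean was 2.65 times the LSK mean for Arf6, 2.85 times for Rac1, 2.77 times for Ppp2ca, 4.49 times for Lamp1 and 5.80 times for Snx20. Without WT LK replicate 1 these ratios were 1.19, 1.14, 1.63, 2.89 and 2.06. In Ripk3-/- cells the LSK mean was 3.31, 2.74, 2.22, 1.85 and 7.87 times the LK mean.

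**Figure D4:**
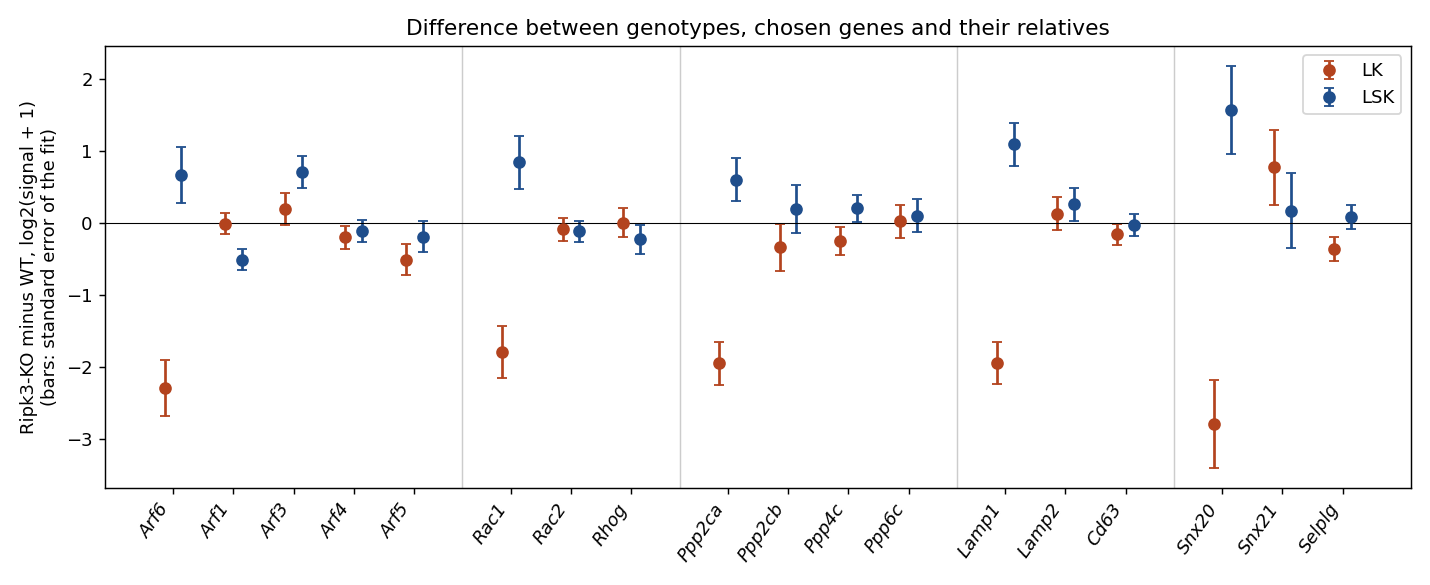
Log2 fold change of Ripk3-/- against WT in LK (red) and LSK cells (blue) for the 5 genes, each followed by its relatives or partner, with the standard error of the fit as bars. The bars share the spread over all groups, and for the 5 genes the LK libraries alone gave larger standard errors in LK. The 5 chosen genes are between -1.80 and -2.79 in LK, and their relatives are between -0.51 and 0.77.

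The closest relatives of the 5 genes are given with their tests in LK, and those of Arf6 also in LSK cells. Arf1, the Golgi ARF, was at 744 and 696 in WT LK against 689 and 737 in Ripk3-/- LK libraries (-0.01, adjusted p = 0.991 from limma). The values in LK were 0.19 for Arf3, -0.20 for Arf4 and -0.51 for Arf5 (adjusted p = 0.933, 0.899 and 0.641 from limma). In LSK cells Arf3 was at 79.9 and 111 in WT against 149 and 161 in Ripk3-/- libraries (0.71, adjusted p = 0.0992 from limma). The values there were -0.51 for Arf1, -0.11 for Arf4 and -0.19 for Arf5 (adjusted p = 0.0803, 0.757 and 0.683 from limma). Rac2, the RAC protein typical of blood cells, was at 1115 and 1047 in WT LK against 882 and 1175 in Ripk3-/- LK libraries, a log2 fold change of -0.09 (adjusted p = 0.963 from limma). Per kilobase of merged exons, the mean over all libraries was 353 CPM for Rac2 and 46.4 CPM for Rac1, and Rac3 was at 12 reads or fewer in each library.

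Ppp2cb, the beta form of the PP2A catalytic subunit, was at 36.5 and 30.5 in WT LK against 31.8 and 21.5 in Ripk3-/- LK libraries (-0.34, adjusted p = 0.919 from limma). Per kilobase, its group means ranged from 18.3 to 25.8 CPM and those of Ppp2ca from 63.7 in WT LK to 15.1 in Ripk3-/- LK, where Ppp2cb was at 20.7. Lamp2, the other main lysosomal membrane protein, was at 264 and 243 in WT LK against 272 and 283 in Ripk3-/- LK libraries (0.13, adjusted p = 0.961 from limma). Selplg, the cargo that Snx20 binds, was at 364 and 338 in WT LK against 246 and 305 in Ripk3-/- LK libraries, and its log2 fold change of -0.36 did not pass (adjusted p = 0.762 from limma). The other relatives were at -0.00 for Rhog, -0.25 for Ppp4c, 0.02 for Ppp6c, -0.16 for Cd63 and 0.77 for Snx21 (adjusted p = 0.999, 0.889, 0.991, 0.919 and 0.876 from limma).

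Genes that overlap the 5 on the genome could share reads with them, because the sources used here do not say whether reads were counted by strand. Daglb, which overlaps Rac1 on the other strand, was at 112 and 99.7 in WT LK against 125 and 159 in Ripk3-/- LK libraries, which is the opposite order from Rac1. Grtp1, which overlaps Lamp1, was at 9.24 or less in every library, with 3.6 and 3.82 in WT LK against 2.85 and 1.99 in Ripk3-/- LK libraries. Mir3061, within Ppp2ca, was at 2.24 or less, with 2.24 and 1.45 in WT LK against 0.634 and 0.186 in Ripk3-/- LK libraries. For Grtp1 and Mir3061 the order of genotypes in LK was thus that of Lamp1 and Ppp2ca. In LSK cells the order of their group means was the reverse of that of Lamp1 and Ppp2ca. The means there were 6.02 in WT and 3.26 in Ripk3-/- cells for Grtp1, and 1.77 and 0.201 for Mir3061. A sharing of reads was not tested. No near-identical pseudogene of the 5 genes was found.

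Of the genes of 4 pathway lists (ARF regulators, PP2A, lysosome, sorting nexins and endosome, without the chosen genes), none of the 173 tested in LK passed with limma and none with edgeR. Over all genes, 65 of 13949 (0.466%) passed in LK, and this number was 13 without Ripk3-/- LK replicate 1, 14 without WT LK replicate 1, 42 without Ripk3-/- LK replicate 2 and 98 without WT LK replicate 2. At an unadjusted p under 0.05, 2 list genes were higher and 4 lower, against 915 of 13949 genes in either direction, and the median log2 fold change was -0.01 against 0.01 over all genes. Another fit did call list genes in LK, named here after their values were seen: Rab5b with DESeq2 (1.38, adjusted p = 0.041), Rab5b and Cyth3 with limma on the LK libraries alone (1.34 and -1.12, adjusted p = 0.02 and 0.0347), and Ppp2r2d with limma without WT LK replicate 2 (-1.77, adjusted p = 0.046). The 43 ARF regulators had a median of -0.03, the 28 PP2A genes -0.07, the 55 lysosome genes -0.05 and the 47 sorting nexin and endosome genes 0.10.

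In LSK cells, 5 of 176 list genes passed, against 354 of all 16817 genes tested (2.11%). Cyth4, an exchange factor for ARF proteins, rose (1.37, SE 0.29, adjusted p = 0.0126 from limma). Set, an inhibitor of PP2A, was at 246 and 249 in WT and at 122 and 116 in Ripk3-/- LSK libraries, and it fell (-1.05, SE 0.18, adjusted p = 0.00203 from limma). The proton pump subunits Atp6v0c and Atp6v1g1 were at -0.99 and -0.86 (adjusted p = 0.00922 and 0.0418 from limma), and Rab7, a GTPase of late endosomes, at -0.92 (adjusted p = 0.0297). These calls differ in strength, since over 18 alternatives Atp6v1g1 lost its call in 12, Rab7 in 10, Cyth4 and Atp6v0c in 3 each and Set in 1, without WT LSK replicate 2 (-1.04, adjusted p = 0.053 from limma). Without that library 0 list genes passed with limma, against 5 with limma and 5 with edgeR over all libraries, where 14 were higher and 13 lower at an unadjusted p under 0.05, against 3009 of 16817 genes in either direction. The number was 2 each without Ripk3-/- LSK replicate 1 or Ripk3-/- LSK replicate 2, and 3 without any of the other 5 libraries. The number was also 2 with no filter (Set and Atp6v0c) and 2 in the LSK libraries alone (Set and Cyth4). At a pseudocount of 0.1 or with the replicate block, Atp6v1g1 alone lost its call. Under other settings the number was higher, at 9 by DESeq2 and 6 each with quantile normalization or a mean of at least 5. After the correction for GC content and length, chosen after seeing the data, it was 7. The genes that DESeq2 added, named after their values were seen, were Acap1 (0.84, adjusted p = 0.0141), Arf1 (-0.54, adjusted p = 0.0151), Asap2 (-2.54, adjusted p = 0.0273) and Rab11b (-0.66, adjusted p = 0.0453), and the other settings named here added only genes among these 4. With LSK against LK, 16 of 175 list genes were higher and 63 lower in LSK, against 2196 higher and 3205 lower of all 15777 genes. The lysosome list stood at a median of -0.54 against 0.07 over all genes, on the common scale that moves all genes by -0.37.

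Across the 8 libraries, with each population centered on its own mean, Pearson's r of log2(signal + 1) between any 2 of the 5 genes was 0.911 to 0.986 over 10 pairs. This closeness follows in part from choosing genes with a common pattern and from libraries that they share. Among 9742 genes with a mean LK signal of at least 5, the gene most like Arf6 was Nsmce4a (r = 0.990), the one most like Rac1 was Gna12 (r = 0.990), and the one most like Lamp1 was Srsf2 (r = 0.993). The gene most like Snx20 was Suds3 (r = 0.996), and for Ppp2ca it was Arf6 (r = 0.986). Next came Ppp2ca (r = 0.986) and Snrpb2 (r = 0.984) for Arf6, Ssbp3 (r = 0.986) and Fam105b (r = 0.983) for Rac1, and 1110049F12Rik (r = 0.985) and Ldb1 (r = 0.981) for Ppp2ca. For Lamp1 they were Clptm1l (r = 0.985) and Ctbp1 (r = 0.983), and for Snx20 Pi4k2a (r = 0.986) and AK160359 (r = 0.976). Srsf2, a splicing factor, was at 505 and 159 in WT LK, 38.7 and 70.5 in Ripk3-/- LK, 138 and 62.1 in WT LSK against 258 and 288 in Ripk3-/- LSK libraries, the same order of groups as Arf6 and with a larger gap between the WT LK replicates than Lamp1.

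The pattern of the 5 genes was found in other genes, in part or whole. Of 363 genes tested in both populations with a log2 fold change of -1 or lower in LK, 84 had WT LK replicate 1 over 2-fold above replicate 2, and 61 of those had a log2 fold change above 0 in LSK. These 61 were the 5 chosen genes and 56 others, and in 33 of the 61 both Ripk3-/- LSK libraries lay above both WT LSK libraries. In the other direction, of 423 genes with a log2 fold change of 1 or higher in LK, 60 had WT LK replicate 1 over 2-fold below replicate 2 and 28 had it over 2-fold above. The gap and the fold change share the WT LK libraries. Transcripts were at hand for 58 of the 61 genes with the pattern (95.1%), and the median GC content of these 58 was 55.2%, against 50.0% for all genes tested in LK. The 5 genes did not share a GC content, with 60% for Arf6, 59.9% for Snx20, 51.6% for Lamp1, 48.3% for Rac1 and 44.6% for Ppp2ca. After a correction for GC content and transcript length, chosen after seeing the data, the log2 fold change in LK was -2.05 for Arf6, -1.87 for Rac1, -2.10 for Ppp2ca, -1.89 for Lamp1 and -2.56 for Snx20.

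Markers of other cells were read beside the 5 genes. Of 7 genes of mature neutrophils, 4 (Ltf, Camp, Ngp and S100a9) were called higher in Ripk3-/- LK cells, with a summed signal of 755 and 751 in WT against 1606 and 1601 in Ripk3-/- LK libraries and S100a8 as the gene with the most signal. Here and below the leading gene of a list is the one with the most reads, not taken per length. The same list summed to 666 and 718 in WT LSK and to 2167 and 2576 in Ripk3-/- LSK libraries, so that it was higher in Ripk3-/- cells of both populations, while the 5 genes were lower in LK and higher in LSK cells. The 4 genes of granulocyte-monocyte progenitors, led by Mpo, summed to 72545 and 63778 in WT against 49746 and 65349.8 in Ripk3-/- LK libraries. The 6 monocyte and macrophage genes summed to 325 and 276 in WT LK against 337 and 318 in Ripk3-/- LK libraries, led by Csf1r, and the 5 listed erythroid genes to 1328 and 1093, and 887 and 899, led by Car1. Their part in the difference of the 5 genes was not tested.

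Summed signal in WT LK replicate 1, WT LK replicate 2, Ripk3-/- LK replicate 1 and Ripk3-/- LK replicate 2 was 206, 213, 171 and 206 for megakaryocyte genes led by Pf4, and 269, 239, 343 and 356 for mast cell and basophil genes led by Cpa3. It was 67.8, 64.1, 45.7 and 61.1 for B cell genes led by Cd79b, and 7, 7.86, 2.47 and 1.99 for T cell genes. NK cell genes, led by Nkg7, summed to 1676, 1581, 1415 and 1655, with Ncr1 at 0 in all but Ripk3-/- LK replicate 1, and dendritic cell genes, led by Irf8, to 328, 313, 363 and 454. Stem cell genes, led by Flt3, summed to 71.1, 80.9, 116 and 87.0. Of the 47 marker genes of these 11 cell types tested in LK, limma called the 4 neutrophil genes and the antigen presentation gene Cd74 (1.17, adjusted p = 0.00643), edgeR called 5, and 8 were higher and 3 lower at an unadjusted p under 0.05, beside 65 calls and 915 genes at that p among all 13949. S100a9 (1.04) and Cd74 lost their calls without WT LK replicate 1, at log2 fold changes of 1.07 and 1.24, and without Ripk3-/- LK replicate 2. S100a9 also lost its call without Ripk3-/- LK replicate 1, at 1.0. With a library left out the log2 fold change ranged from 1.0 to 1.08 for S100a9 and from 0.97 to 1.37 for Cd74. With no filter on low values both lost their calls as well (adjusted p = 0.154 and 0.121 from limma), at 1.04 and 1.17.

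Immediate-early genes respond within minutes to stress and handling. Of 20 such genes tested in LK, 5 were called lower in Ripk3-/- cells with limma: Dusp2 (-2.41, SE 0.29), Jund (-2.26, SE 0.36), Atf3 (-1.18, SE 0.19), Nr4a1 (-1.10, SE 0.18) and Junb (-0.88, SE 0.17), with adjusted p from limma of 8.9e-05, 0.00332, 0.00332, 0.00356 and 0.0172. With edgeR 5 of the genes were called, and at an unadjusted p under 0.05 with limma 9 were lower and 1 higher, beside 51 genes called lower and 915 at that p in either direction among all 13949. Jund was at 631 and 379.8 in WT LK against 51.7 and 197 in Ripk3-/- LK libraries. The summed signal of the list was 12833 and 12356 in WT LK against 10049 and 12263 in Ripk3-/- LK libraries, led by Fos, and its part in the difference of the 5 genes was not tested. Junb, Jund and Nr4a1 lost their call without WT LK replicate 1, at log2 fold changes of -0.74, -1.9 and -1.14. Without Ripk3-/- LK replicate 1 these 3 and Atf3 lost it, at -0.63, -1.31, -0.81 and -1.02. With no filter on low values the log2 fold changes were those given for the calls, and all 5 genes lost their call. The adjusted p from limma was then 0.121 for Dusp2 and Atf3, 0.174 for Nr4a1 and 0.496 for Junb and Jund. Jund also lost its call with DESeq2 (-2.03, adjusted p = 0.105). In LSK cells, where the 5 chosen genes were higher in Ripk3-/- libraries, limma called Atf3 (-1.37, adjusted p = 2.5e-04) and Nr4a1 (-1.06, adjusted p = 0.0019) lower. Nr4a1 lost this call without WT LSK replicate 1, WT LSK replicate 2 or Ripk3-/- LSK replicate 2. With a library left out its log2 fold change in LSK ranged from -1.11 to -1.02.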

How the data were processed

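Total RNA of sorted LSK and LK cells from WT and Ripk3 knockout mice was made into 8 stranded mRNA libraries and sequenced. According to the submitters' processing notes, the reads were aligned with TopHat to the genome build mm9. The counter, annotation and scaling are not given in the sources used here. The authors deposited values, called signal here, under the heading FPKM. In each library, however, all values (100%) came out whole to within 0.01 once divided by the smallest nonzero value of that library. This makes them CPM with a TMM factor computed within each population. Division by that smallest value gave back the reads.

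Genotypes were compared with limma 3.58.1 (lmFit, eBayes with a trend, R 4.3.3) on log2(signal + 1), with a mean for each of the 4 groups. A gene was tested, two-sided, where its mean signal in the libraries compared reached 1, with Benjamini-Hochberg adjustment over all of them and a threshold of 0.05. LSK against LK was fitted the same way after TMM over all 8 libraries. Alternatives were a pseudocount of 0.1, no filter, a mean of at least 5, quantile normalization, a replicate block, edgeR 4.0.16, DESeq2 1.42.0, each population alone, the other scaling, each library left out and, chosen after seeing the data, a correction for GC content and length. The scripts were tested on simulated data.

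The genes named are the 5 chosen genes and Ripk3, close relatives, list genes with an adjusted p under 0.05 in a genotype contrast (at most 6 per list and contrast), the 3 genes most like each chosen gene, cell type and sex markers, immediate-early genes, genes that overlap the chosen ones and, named after their values were seen, a few list genes called under another setting and the other genes of highest LK signal with a similar pattern. Genes and lists were chosen with earlier results of these data known. Transcript lengths, GC content and overlaps come from GENCODE transcripts on GRCm38, in which 74.1% of names were found, and no positions of the authors' build were used. Near-identical copies were searched with BLAST 2.17.0.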

Additional observations from a re-analysis of the deposited data

Results flagged for a closer look

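The difference between Ripk3-/- and WT cells had opposite directions in LSK and LK cells for each of the 5 chosen genes. Every Ripk3-/- LK library was below both WT LK libraries and every Ripk3-/- LSK library above both WT LSK libraries. The first arrangement was found in 19.9% of the genes tested in LK and the second in 21.4% of those tested in LSK. The share of all genes with both was not counted. The log2 fold change in LSK minus that in LK was 2.96 for Arf6, 2.64 for Rac1, 2.55 for Ppp2ca, 3.04 for Lamp1 and 4.36 for Snx20. This contrast was not tested for them, because the genes were chosen on it.

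A test of the same contrast over all 15925 genes called 55 (0.345%). It was 2.77 for Dusp2 (SE 0.41, adjusted p = 0.00249 from limma), 2.55 for Jund (SE 0.52, adjusted p = 0.03 from limma) and -2.40 for Ripk3 (SE 0.51, adjusted p = 0.0398 from limma), whose reads fell further in LSK than in LK cells. Alternatives for this contrast were chosen after seeing the data. Over 16 of them the value of Dusp2 ranged from 2.27 to 3.26 and its adjusted p was over 0.05 in 2, with no filter (0.297 from limma) and without WT LSK replicate 2 (2.47, 0.0833). Jund ranged from 1.59 to 3.50 and was over 0.05 in 10, among them edgeR (0.148) and DESeq2 (0.322), and without WT LSK replicate 1 (2.68, 0.162), WT LSK replicate 2 (2.41, 0.239), Ripk3-/- LSK replicate 1 (2.34, 0.137), Ripk3-/- LSK replicate 2 (2.75, 0.11), WT LK replicate 1 (2.18, 0.306) and Ripk3-/- LK replicate 1 (1.59, 0.104). Ripk3 ranged from -2.93 to -1.86 and was over 0.05 in 9, among them without WT LSK replicate 1 (-2.42, 0.172), WT LSK replicate 2 (-2.37, 0.208), Ripk3-/- LSK replicate 2 (-1.86, 0.142), WT LK replicate 1 (-2.37, 0.344), WT LK replicate 2 (-2.42, 0.131), Ripk3-/- LK replicate 1 (-2.11, 0.369) and Ripk3-/- LK replicate 2 (-2.68, 0.0707).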

How the results depend on the processing

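The genes called between genotypes in LK numbered 65, 9 with no filter, 32 with quantile normalization, 170 with DESeq2 and 125 in the LK libraries alone, and 13 to 98 with a library left out. In LSK they numbered 354, 198 with no filter, 233 with edgeR, 609 with DESeq2 and 195 in the LSK libraries alone, and 89 to 256 with a library left out. The call counts of LSK against LK ran from 3747 to 5408. Replicate numbers did not pair the libraries (over the 6 pairs of groups, the correlation of deviations across genes ran from -0.158, between Ripk3-/- LSK and Ripk3-/- LK, to 0.029), and the replicate block gave 62, 303 and 5207 calls for LK, LSK and LSK against LK, with -0.60 for Lamp1 in the last. The 5 genes kept their direction in LK and LSK under all 18 alternatives, which is no sign of stability in genes chosen by it, with leave-out ranges in LK of -3.18 to -1.42 for Arf6, -2.78 to -0.81 for Rac1, -2.57 to -1.33 for Ppp2ca, -2.48 to -1.42 for Lamp1 and -3.82 to -1.76 for Snx20. For LSK against LK, the adjusted p of Lamp1 was over 0.05 at a pseudocount of 0.1 (-0.60, adjusted p = 0.0563), with no filter (-0.60, 0.184), quantile normalization (-0.15, 0.664), edgeR (-0.59, 0.0607), DESeq2 (-0.58, 0.239) and the deposited scale (-0.23, 0.406). Ppp2ca, not called, turned to 0.34 with quantile normalization and 0.25 on the deposited scale, and Snx20 to -0.19 with quantile normalization. With a library left out, LSK against LK ranged from -0.14 to 0.75 for Arf6, -0.38 to 0.62 for Rac1, -0.43 to 0.20 for Ppp2ca, -0.86 to -0.33 for Lamp1 and -0.27 to 0.77 for Snx20. Apart from the scale itself and from fewer genes or libraries tested, the cause was not tested. With 2 libraries per group and 22 reads of Snx20 in the lowest library, small differences could not be resolved.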

Other observations

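Of the 56 other genes with a log2 fold change of -1 or lower in LK and above 0 in LSK and with WT LK replicate 1 over 2-fold above replicate 2, those of highest LK signal, named here after their values were seen, were Ankrd13a, Srsf2 and Gnb1. Ankrd13a, which binds ubiquitin chains on internalized receptors, was at 633 and 127 in WT LK against 116 and 119 in Ripk3-/- LK libraries, so that WT LK replicate 2 was near the Ripk3-/- libraries. In LSK cells it was at 216 and 215 in WT against 306 and 322 in Ripk3-/- libraries, with no overlap. Gnb1, a G protein subunit, was at 397 and 96.9 in WT LK against 75.9 and 90.1 in Ripk3-/- LK libraries. Its LSK libraries overlapped, at 124 and 101 in WT against 118 and 187 in Ripk3-/- cells, unlike those of the 5 chosen genes.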
